A study of Mus musculus with 2 samples.

Results

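Tnfrsf9-high and Tnfrsf9-negative regulatory T cells (Tregs) from the islets of wild-type NOD mice were compared within 1 single-cell library. Tnfrsf9 encodes CD137 (4-1BB). Of 2804 barcodes in the wild-type library, 2714 had 200 to 5000 genes and at most 20% mitochondrial transcripts. A cell was taken as a Treg when it had no unique molecular identifier (UMI, 1 counted transcript) of Cd8a or Cd8b1, at least 1 over Cd4, Foxp3, Il2ra and Ikzf2, at least 3 over the CD3 genes, and fewer than 3 over the cell cycle genes Mki67, Top2a, Birc5, Ube2c and Cdk1. These limits left 1594, 1552, 1514 and then 1362 cells. Among the 1362 Tregs, 431 held 2 or more Tnfrsf9 UMIs (Tnfrsf9-high, 31.6%, exact binomial 95% interval 29.2 to 34.2%), 701 held none (Tnfrsf9-negative) and 230 held exactly 1 and entered neither group. Both libraries of the series together had 5629 cells within the limits.

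CD137 is a costimulatory receptor of the TNF receptor family. T cells put it on their surface after T cell receptor (TCR) stimulation, and Tregs carry it more readily than resting conventional T cells. Its ligand, CD137L (Tnfsf9), is made mainly by antigen-presenting cells, and ligation recruits TRAF adaptors and activates NF-kB. A splice form that lacks the transmembrane exon yields a soluble receptor, which Tregs can secrete. The counts used here are per gene and do not separate the splice forms, so a Tnfrsf9 UMI stands for either.

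Cells came from the pancreatic islets of prediabetic NOD female mice aged 9 to 10 weeks, the NOD strain being one that develops autoimmune diabetes. The wild-type group was NOD.Foxp3-EGFP and the knockout group was NOD.Tnfrsf9-/-.Foxp3-EGFP, in which Tnfrsf9 is targeted in all cells, and both carry an EGFP reporter of Foxp3. Islets of 6 mice were pooled per strain, CD45.1+ cells were sorted as CD8+ or as CD4+ GFP+, and both sorts went into 1 droplet library per strain. There is therefore 1 library per genotype and no replicate: intervals here are exact and cover counting error only, and cells are not replicates of a condition, so no p-values were computed.

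Over all barcodes Tnfrsf9 stood at 227 counts per 1000000 UMIs (CPM) in the wild-type library and at 71.5 CPM in the knockout library. The Tnfrsf9 UMIs still counted in the knockout do not report on the protein, and their source was not tested. With each cell thinned to 2000 UMIs, 34.1% of wild-type Tregs had a Tnfrsf9 UMI (31.5 to 36.7%, 54 shallower cells left out). In wild-type CD8 T cells that held 2 or more UMIs of Ccr7, Lef1 and S1pr1, a resting population that should largely lack the receptor, the thinned share was 2.42% (0.789 to 5.55%), with median depths of 4070 UMIs before thinning for the Tregs and 5099 for the CD8 T cells. Without thinning these shares were 48.5% and 4.83%. Tnfrsf9-negative means that no UMI was counted, and a cell that expressed the gene at a low level can fall in this group. The libraries shared 16 barcodes, of which 7 lay in the 2 wild-type Treg groups.

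Treg markers were checked in both groups. Ikzf2 (Helios) was counted in 99.3% of Tnfrsf9-high and 92.2% of Tnfrsf9-negative cells, Ctla4 in 98.1% and 92.0%, and Tnfrsf18 (GITR) in 93.5% and 70.0%. Foxp3 itself was counted in only 14.2% and 10.8%, and Il2ra in 48.3% and 28.7%. Whether the EGFP reporter allele changes how 3′ tags of Foxp3 were counted was not tested, which also bears on settings that require a Foxp3 UMI. The rule used Ikzf2, Foxp3 and Il2ra to choose Tregs, and these shares are not adjusted for depth. Across wild-type CD8 T cells, chosen by the mirrored rule that demands no UMI of those genes, Ctla4 was counted in 58.1%.

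Cells with more Tnfrsf9 also held more RNA counts. The median total, without Tnfrsf9 itself, was 3460 UMIs in Tnfrsf9-negative cells, 4155.5 in cells with 1 Tnfrsf9 UMI and 5419 in Tnfrsf9-high cells. At the edge of the rule, the 230 cells just outside held 199 CPM of Tnfrsf9 and the 118 cells with exactly 2 UMIs, just inside, held 358 CPM. The highest count was 53 UMIs in 1 cell. Because a deeper cell passes a UMI threshold more easily, Tnfrsf9-high cells were paired 1 to 1 with Tnfrsf9-negative cells of similar total UMIs (within 0.1 on the log2 scale). This gave 358 pairs with medians of 4909 and 4698.5 UMIs, and all levels given next are from these cells unless stated. The 73 Tnfrsf9-high cells without a partner had a median of 9235 UMIs. Mitochondrial transcripts had a median of 1.48% in matched Tnfrsf9-high and 1.68% in matched Tnfrsf9-negative cells, and ribosomal protein genes took 22.3% and 25.02% of UMIs. Before matching the ribosomal share was 23.9% in both groups. The part these differences play in the ratios was not tested.

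**Figure D1:**
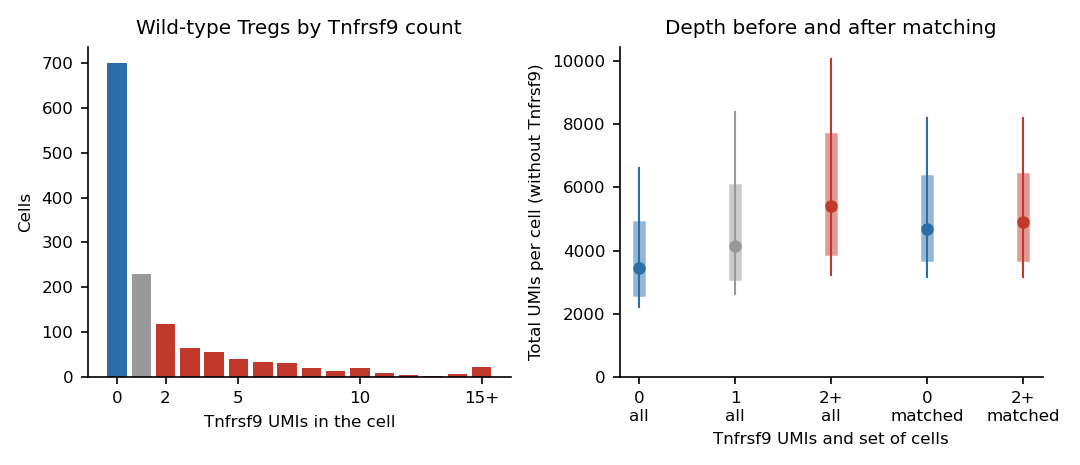
Left, number of wild-type Tregs (vertical axis) at each Tnfrsf9 UMI count (horizontal axis, 15+ pools 15 or more), with 701 cells at 0 (blue), 230 at 1 (grey) and 431 at 2 or more (red). Right, total UMIs per cell without Tnfrsf9 in the same groups before and after matching, where points are medians, thick bars the 25th to 75th percentile and thin lines the 10th to 90th percentile: the medians of 3460 and 5419 before matching became 4698.5 and 4909.

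Of 7144 genes with at least 50 UMIs over both matched groups, leaving out Tnfrsf9 and the genes of the rule, 123 (1.72%) were 2-fold or more higher in Tnfrsf9-high cells and 71 (0.994%) were 2-fold or more lower. The median log2 ratio over all these genes was 0.06. In the knockout library the same rule gave 158 pairs, and 63 of 5310 genes (1.19%) were higher and 33 (0.621%) lower. These counts move with the setting. Without matching 163 genes were higher and 172 lower, and with all cells thinned to 2000 UMIs 101 were higher and 147 lower, so the excess of higher genes was found in the matched cells and not in these. With a minimum of 20 UMIs they were 288 and 199 of 9093 genes, and with a minimum of 100 UMIs 55 and 35 of 5126. Among cells with at least 1 Foxp3 UMI only 45 pairs remained, and 41 and 21 of 1500 genes passed.

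The leading higher genes included a TCR-induced nuclear receptor, secreted peptides, receptors of the TNF and interleukin-1 families, and transcription factors. They were the 12 genes with the largest ratio after 20 CPM was added to both sides. Nr4a1 (Nur77), an immediate early gene of TCR stimulation, stood at 189.6 CPM in Tnfrsf9-high and 46.3 CPM in Tnfrsf9-negative cells, a log2 ratio of 2.03 (95% interval 1.69 to 2.39). Il1r2, a decoy receptor that binds interleukin-1 without signaling, stood at 230.5 CPM in Tnfrsf9-high and 67.4 CPM in Tnfrsf9-negative cells, a log2 ratio of 1.77 (95% interval 1.49 to 2.07). Il1rn, the interleukin-1 receptor antagonist, had 58 and 6 UMIs and a log2 ratio of 3.25 (95% interval 2.04 to 4.75). Of the Il1rn UMIs 3 cells gave 31.0% in the Tnfrsf9-high group. Areg (amphiregulin, a ligand of the EGF receptor) stood at 90.9 against 21.6 CPM, a log2 ratio of 2.07 (95% interval 1.58 to 2.60). Penk, the precursor of enkephalins, stood at 212 against 57.4 CPM, a log2 ratio of 1.88 (95% interval 1.58 to 2.20), but only 36 of the 358 Tnfrsf9-high and 23 of the 358 Tnfrsf9-negative cells held it, and 3 cells gave 32.2% of the UMIs in the Tnfrsf9-high group and 44.0% in the Tnfrsf9-negative group. With at least 1 Foxp3 UMI required, which left 45 pairs, the log2 ratio of Penk was -0.10.

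Integrin alpha v, Itgav, which with integrin beta 8 frees active TGF-beta from its latent complex, stood at 636 against 284 CPM, a log2 ratio of 1.16 (95% interval 1.02 to 1.31). Its UMIs were spread over 273 of the 358 Tnfrsf9-high and 212 of the 358 Tnfrsf9-negative cells. Angptl2, a secreted angiopoietin-like protein, had a log2 ratio of 1.30 (95% interval 1.03 to 1.57), and its gene lies within Ralgps1 on the opposite strand, which had 55 and 32 UMIs. Among transcription regulators, Id2, an inhibitor of E proteins, stood at 474 against 207 CPM and had a log2 ratio of 1.20 (95% interval 1.02 to 1.37). Irf8, an interferon regulatory factor, had a log2 ratio of 1.23 (95% interval 1.00 to 1.46), and Bmyc, a Myc family member, of 1.33 (95% interval 1.08 to 1.59). Irf8 overlaps Gm20388 on the same strand, so reads may have been divided between them, and Gm20388 had a log2 ratio of -0.30. Restricting both groups to cells with no UMI of the naive genes Ccr7, Lef1 and S1pr1 left 169 pairs, in which Irf8 stood at 0.59 and Angptl2 at 0.80 on the log2 scale, against 1.67 for Nr4a1.

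The leading lower genes included the transcription factors Klf2 and Id3, the receptors S1pr1 and Cd226 and the actin regulator Evl. Evl, of the Ena/VASP family, stood at 47.5 CPM in Tnfrsf9-high and 202 CPM in Tnfrsf9-negative cells, a log2 ratio of -2.09 (95% interval -2.43 to -1.76). It was counted in 53 of the 358 Tnfrsf9-high and 168 of the 358 Tnfrsf9-negative cells. Klf2, a transcription factor that keeps T cells recirculating, stood at 15.5 against 58.5 CPM, a log2 ratio of -1.91 (95% interval -2.55 to -1.32). S1pr1, the sphingosine-1-phosphate receptor by which lymphocytes leave tissue and a target of Klf2, stood at 18.6 against 64.2 CPM, a log2 ratio of -1.79 (95% interval -2.37 to -1.24). Themis, a regulator of TCR signaling, had 32 and 122 UMIs and a log2 ratio of -1.96 (95% interval -2.57 to -1.39). Id3, the relative of Id2, had a log2 ratio of -1.77 (95% interval -2.33 to -1.24), opposite in sign to Id2. Cd226, an activating receptor that shares ligands with Tigit, had 20 and 74 UMIs and a log2 ratio of -1.91 (95% interval -2.71 to -1.19). Ms4a4b, a tetraspanning membrane protein of T cells, stood at 138 against 379.7 CPM, a log2 ratio of -1.46 (95% interval -1.67 to -1.26). The others were Dpp4 (CD26, -1.44), Tnfsf8 (CD30 ligand, -1.35), St6gal1 (a sialyltransferase, -1.17), the noncoding RNA Gm12840 (-1.12) and Itgb1 (integrin beta 1, -1.07). None of these 12 genes changed sign in the alternative settings that gave it a value (S1pr1 has none where cells with its UMIs were removed), where the values nearest to 0 lay between -0.57 for Gm12840 and -1.42 for Cd226.

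**Figure D2:**
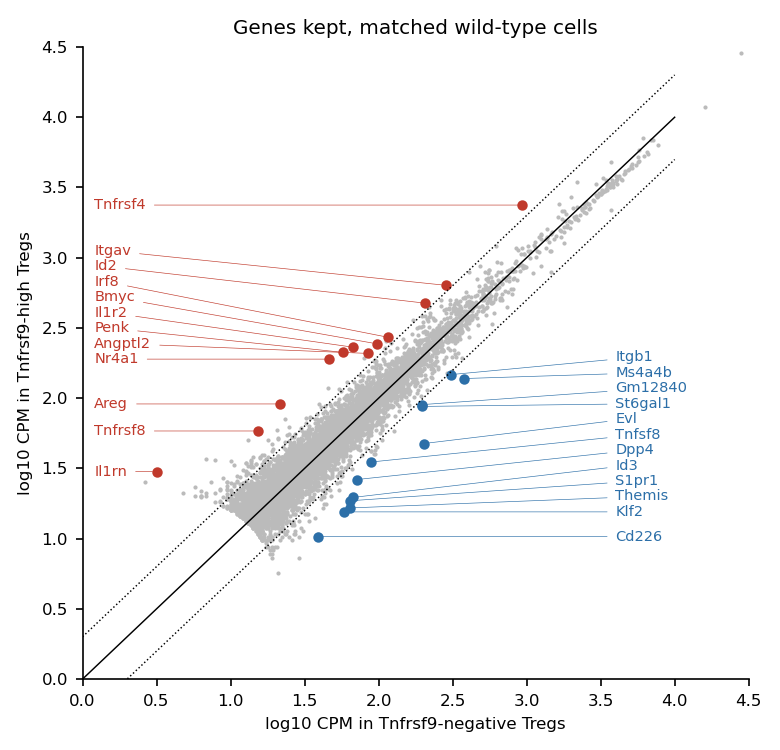
Level of each of the 7144 genes in matched Tnfrsf9-negative (horizontal axis) and Tnfrsf9-high (vertical axis) wild-type Tregs, in log10 CPM, with equality as a solid line and 2-fold as dotted lines. Red and blue points are the 12 leading higher and 12 leading lower genes; Tnfrsf4 is the most abundant of them at 2370 against 932 CPM.

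Tregs of the knockout library, to which the same rule was applied, give the values side by side in cells that were not used to choose these genes. All 12 leading higher genes lay above 0 there, 11 of them beyond counting error, with log2 ratios from 0.55 to 2.84. Of the 12, 7 were past 2-fold, Il1rn included. Nr4a1 stood at 2.31 (1.68 to 2.99), Areg at 2.84 (1.93 to 3.90) and Tnfrsf4 at 1.19 (1.07 to 1.31), while Il1r2 stood at 0.91 (0.41 to 1.43) and Bmyc at 0.55 (0.19 to 0.91). Il1rn, at 1.58 (-0.42 to 4.11), had only 9 and 3 UMIs in the knockout groups, too few to be kept there. Of the 12 leading lower genes, 11 lay below 0 in the knockout, but only 6 beyond counting error and none past 2-fold. The nearest was Klf2 at -0.98 (-1.64 to -0.34), followed by Itgb1 at -0.71 (-0.98 to -0.45). Evl stood at -0.51 (-0.90 to -0.11), Id3 at -0.07 (-0.62 to 0.47), and Tnfsf8, at 0.11 (-0.47 to 0.69), lay on the other side of 0. These genes were chosen on the wild-type values, and the difference between the libraries was not tested. Of all 123 higher genes 64 had enough UMIs in the knockout, of which 54 were on the same side and 17 were past 2-fold. For the 71 lower genes the numbers were 40, 35 and 4.

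**Figure D3:**
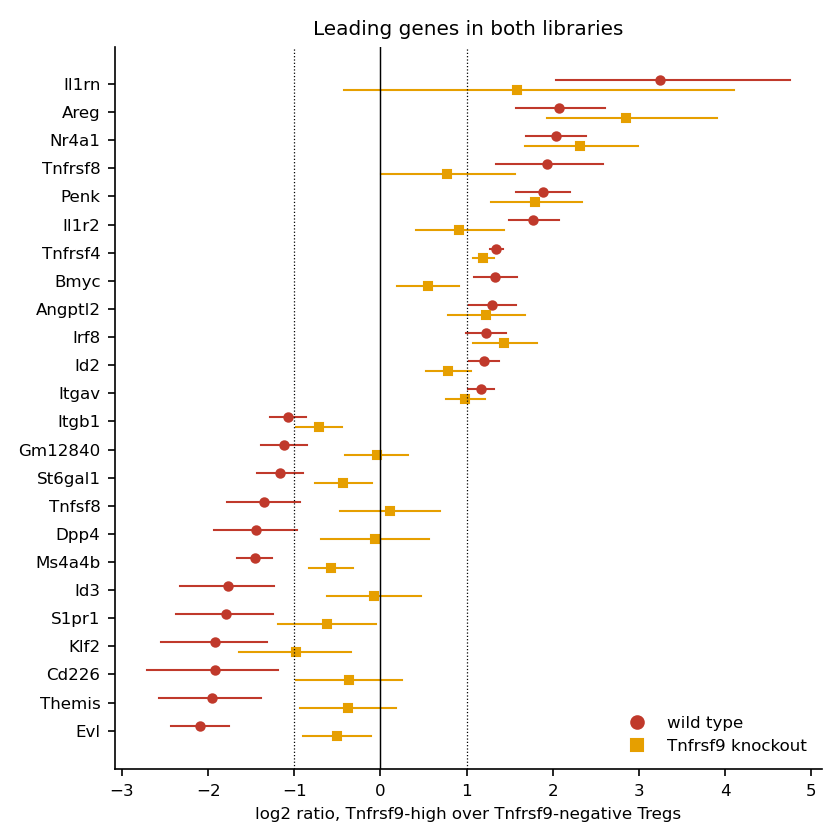
Log2 ratio of Tnfrsf9-high over Tnfrsf9-negative Tregs (horizontal axis) for the 24 leading genes, in the wild-type library (red circles, 358 pairs) and the knockout library (orange squares, 158 pairs), with exact 95% counting intervals as lines and 2-fold dotted. The higher genes stay above 0 in both libraries, and the lower genes lie nearer to 0 in the knockout, with none past 2-fold.

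The TNF receptors Tnfrsf4, Tnfrsf8 and Tnfrsf1b were 2-fold or more higher in Tnfrsf9-high cells, and the ligands Tnfsf8 and Cd40lg 2-fold or more lower. Over all genes 1.72% were past 2-fold higher and 0.994% lower. Of 20 receptors and ligands of the family listed, 14 had enough UMIs, and 5 of these did not differ beyond counting error. Counting intervals lay above 0 for 7 and below 0 for 2, against 16.3% and 9.62% of all genes. The median log2 ratio was 0.25 beside 0.06 over all genes, and -0.0015 without matching. The receptor with the most UMIs was Tnfrsf4 (OX40), at 2369.7 CPM in Tnfrsf9-high and 932 CPM in Tnfrsf9-negative cells, a log2 ratio of 1.35 (95% interval 1.27 to 1.43). It was counted in 354 of the 358 Tnfrsf9-high and 294 of the 358 Tnfrsf9-negative cells. Tnfrsf8 (CD30) stood at 58.4 against 15.3 CPM, a log2 ratio of 1.93 (95% interval 1.34 to 2.58), and was counted in 81 of the 358 Tnfrsf9-high and 26 of the 358 Tnfrsf9-negative cells. Tnfrsf1b (TNFR2), the TNF receptor typical of Tregs, stood at 445 against 221 CPM, a log2 ratio of 1.01 (95% interval 0.84 to 1.18). Tnfrsf18, a receptor whose gene neighbors Tnfrsf4, stood at 871 against 485 CPM, a log2 ratio of 0.84 (95% interval 0.73 to 0.96), short of 2-fold. Cd27, a costimulatory receptor of resting and activated T cells, was nearer to equal at 575 against 476 CPM and 0.27.

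Among ligands, Tnfsf8, which binds CD30, stood at 35.1 against 89.5 CPM, a log2 ratio of -1.35 (95% interval -1.78 to -0.94). It was counted in 28 of the 358 Tnfrsf9-high and 43 of the 358 Tnfrsf9-negative cells, and 3 cells gave 38.2% and 32.4% of its UMIs. Cd40lg, the CD40 ligand of helper T cells, had 17 and 39 UMIs and a log2 ratio of -1.23 (95% interval -2.14 to -0.37), with 52.9% of the Tnfrsf9-high UMIs from 3 cells. Ltb (lymphotoxin beta) was abundant in both groups, at 1393 against 1204 CPM, and had a log2 ratio of 0.21. Tnfsf9, the ligand of CD137 itself, had only 20 and 4 UMIs, too few to be kept, with a log2 ratio of 2.29 (95% interval 0.72 to 4.30), and 4 and 4 UMIs in the knockout. Tnf was at 21 UMIs in each group. In the knockout 12 members were kept, with 3 higher past 2-fold and none lower, against 1.19% and 0.621% of all genes there. Their median was 0.52.

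Tnfrsf9, Tnfrsf8, Tnfrsf1b and Tnfrsf4 all lie on chromosome 4. In GENCODE vM21 on GRCm38, Tnfrsf9 spans chr4:150914562-150946102 on the plus strand and overlaps Camta1 on the minus strand, Tnfrsf4 spans chr4:156013843-156016612, plus strand, and Tnfrsf8 spans chr4:145267137-145315164, minus strand, with Tnfrsf1b as the next gene on its strand, 20266 bases on. Windows around gene starts are shown for the receptor that defines the groups and for Tnfrsf8, the family member with the largest ratio among those kept. The windows run from 250 bases before to 50 after a start, from RefSeq on GRCm38.p6, written on the gene's own strand, with matches in capitals. The motifs searched, on both strands, were the AP-1 site TGANTCA, the CRE site TGACGTCA, the NR4A site AAAGGTCA and the NF-kB consensus.
Tnfrsf9, first listed start, chr4:150919905-150920204, plus strand: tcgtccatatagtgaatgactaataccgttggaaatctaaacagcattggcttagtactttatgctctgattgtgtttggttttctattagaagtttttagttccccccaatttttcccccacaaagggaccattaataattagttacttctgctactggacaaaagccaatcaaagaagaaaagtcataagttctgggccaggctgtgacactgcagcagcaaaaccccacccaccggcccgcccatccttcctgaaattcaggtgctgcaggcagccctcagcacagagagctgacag
Tnfrsf9, second listed start, chr4:150927749-150928048, plus strand: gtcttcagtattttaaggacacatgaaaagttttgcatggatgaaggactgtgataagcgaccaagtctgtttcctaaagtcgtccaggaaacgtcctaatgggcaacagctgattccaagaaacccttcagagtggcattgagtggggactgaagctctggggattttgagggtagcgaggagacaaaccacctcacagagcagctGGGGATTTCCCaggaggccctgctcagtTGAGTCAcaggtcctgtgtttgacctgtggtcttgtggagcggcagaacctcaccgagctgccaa
Tnfrsf8, chr4:145315115-145315414, minus strand: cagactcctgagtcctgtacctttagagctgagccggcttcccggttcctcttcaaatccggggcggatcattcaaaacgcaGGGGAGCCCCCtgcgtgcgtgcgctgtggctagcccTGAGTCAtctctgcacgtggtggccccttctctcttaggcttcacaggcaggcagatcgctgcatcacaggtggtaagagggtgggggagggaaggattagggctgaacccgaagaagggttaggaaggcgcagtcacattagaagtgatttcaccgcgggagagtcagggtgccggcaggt

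The window at the first Tnfrsf9 start held none of the 4 motifs, which says only that these letters are not in this window. The window at the second start held 1 AP-1 site and 2 overlapping matches to the NF-kB consensus. The Tnfrsf8 window likewise held 1 AP-1 site and 2 overlapping NF-kB matches. Among all 27025 genes with such a window, 8.97% had an AP-1 site and 9.55% an NF-kB match in at least 1 window, and among 5558 genes kept in the comparison and matched by symbol 5.78% and 12.3%. The CRE site was in 2.03% and 3.99% of these genes and the NR4A site in 1.70% and 1.13%. Of the 12 leading higher genes 11 were matched, and 2 held an AP-1 site (Il1rn and Tnfrsf8), 2 an NF-kB match (Nr4a1 and Tnfrsf8), 1 a CRE site (Areg) and 0 the NR4A site. Of the 12 leading lower genes 9 were matched, 2 with an AP-1 site (Ms4a4b and St6gal1) and 0 with an NF-kB match. The windows of Tnfrsf4 and Tnfrsf1b held none of the 4. A match is a sequence, not evidence of binding.

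Downstream of TNF receptors, 14 of 27 TRAF and NF-kB genes had a counting interval above 0, 1 had an interval below 0 and 12 did not differ beyond counting error. Over all 7144 genes 16.3% had an interval above 0 and 9.62% one below. All 27 were kept and 1 was past 2-fold higher, against 1.72% of all genes. The median log2 ratio was 0.37, or 0.18 without matching. The member past 2-fold was Traf4, an adaptor, with 69 and 32 UMIs and a log2 ratio of 1.08 (95% interval 0.46 to 1.73). It stood at -0.29 among the 45 pairs with a Foxp3 UMI, from few UMIs. The NF-kB subunits Rel (0.86 (95% interval 0.60 to 1.13)), Relb (0.84 (95% interval 0.57 to 1.11)) and Nfkb1 (0.79 (95% interval 0.61 to 0.96)) and the adaptor Traf3 (0.84 (95% interval 0.63 to 1.06)) were higher by less than 2-fold. Nfkbia, the inhibitor that NF-kB itself induces, stood at 812 against 558 CPM, a log2 ratio of 0.54 (95% interval 0.43 to 0.65). Traf1, an adaptor that binds CD137, stood at 269.7 against 229 CPM and 0.24 (95% interval 0.05 to 0.43). Tnfaip3 (A20), another induced inhibitor, was at -0.08 (95% interval -0.29 to 0.13), and Traf5 was lower at -0.40 (95% interval -0.70 to -0.11). In the knockout Nfkb1 stood at 1.07 (0.84 to 1.29), Relb at 1.02 (0.59 to 1.46) and Rel at 0.76 (0.49 to 1.04).

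In the BCL2 family, which sets the threshold for apoptosis, 12 of 14 members were kept and only Bcl2 was past 2-fold, in the lower direction. Over all genes 0.994% were past 2-fold lower. Counting intervals lay above 0 for 5 and below 0 for 1, against 16.3% and 9.62% of all genes. Bcl2 stood at 58.4 CPM in Tnfrsf9-high and 128 CPM in Tnfrsf9-negative cells, a log2 ratio of -1.13 (95% interval -1.47 to -0.80), and at -0.25 (-0.63 to 0.14) in the knockout. Its antiapoptotic relative Bcl2l1 (Bcl-xL) lay on the other side, at 66.7 against 37.4 CPM and 0.83 (95% interval 0.41 to 1.27). Bcl2a1b stood at 0.79 (95% interval 0.61 to 0.96), but it shares near-identical sequence with Bcl2a1a and Bcl2a1d, so the division of reads among the copies is uncertain. Bax, which promotes apoptosis, was close to equal at 0.07 (95% interval -0.16 to 0.29). The median of the family was 0.32.

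Genes induced by TCR stimulation differed by gene. Of 18 listed, 17 were kept, and 15 lay above 0 and 2 below, where 42.4% of all genes lay below 0. Counting intervals lay above 0 for 12 and below 0 for 2, against 16.3% and 9.62% of all genes. The median was 0.61, with 0.52 in the knockout. Against 1.72% of all genes, 4 members were 2-fold or more higher. Besides Nr4a1, these were the related nuclear receptors Nr4a3 (51.7 against 21.1 CPM, 1.29 (95% interval 0.75 to 1.86)) and Nr4a2 (77.5 against 38.4 CPM, 1.01 (95% interval 0.60 to 1.44)) and the transcription factor Nfil3 (49.6 against 24.8 CPM, 1.00 (95% interval 0.49 to 1.54)). Nr4a2 and Nfil3 lie on the 2-fold line, and the count of 4 became 2 when pairs were matched on genes detected or scaled by trimmed means. With a Foxp3 UMI required it became 0, but only 5 members had enough UMIs to be kept. In that setting Nr4a1 stood at 2.88 and Nfil3 at 1.56, whereas Nr4a2 stood at -0.18 and Cd69 at 0.16. It has 45 pairs, and the values of Nr4a1, Nfil3 and Nr4a2 rest on few UMIs. Among abundant members, Eif5a, a translation factor, stood at 0.61 (95% interval 0.49 to 0.74) and Batf, an AP-1 family factor of effector Tregs, at 0.53 (95% interval 0.38 to 0.69). Rgs1, a regulator of chemokine receptor signaling, was at -0.21 (95% interval -0.32 to -0.11). Cd69, the early activation antigen that retains cells in tissue, lay on the other side. It stood at 137 against 207 CPM, a log2 ratio of -0.60 (95% interval -0.83 to -0.37), while Egr1 did not differ beyond counting error at 0.26 (95% interval -0.22 to 0.75). The immediate early genes Fos and Jun were lower, at -0.61 (95% interval -0.83 to -0.39) and -0.57 (95% interval -0.77 to -0.37), and without matching both were past 2-fold, at -1.15 and -1.08. In the matched cells, of 13 immediate early and heat shock genes kept only Hspa1a was past 2-fold, at -1.06 (95% interval -1.43 to -0.71). Over all genes 0.994% were past 2-fold lower. The median of the 13 was 0.12. Junb, Hsp90ab1 and Hspa8, the members with the most UMIs, stood at 0.32, 0.32 and 0.12. Hspa1a stood at 1.03 among the 45 pairs with a Foxp3 UMI, from few UMIs.

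Among 14 kept genes of proximal TCR signaling 1 was past 2-fold lower, against 0.994% of all genes. It was Themis, described with the leading lower genes. Lck, Cd247 and Lat, the kinase, zeta chain and adaptor of the receptor, stood at 0.14, 0.04 and -0.12. The median was 0.11.

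Among Treg identity genes outside the rule, 8 of 11 kept had a counting interval above 0, against 16.3% of all genes, and 1 had an interval below 0, against 9.62%. Of 14 listed genes 3 were part of the rule (Foxp3 0.09, Il2ra 0.82 and Ikzf2 0.43 on the log2 scale, given as a description). Of the other 11, 9 lay above 0 and 2 were past 2-fold higher, against 1.72% of all genes. Their median was 0.67, and 0.53 in the knockout. Lrrc32 (GARP), the receptor that holds latent TGF-beta on the Treg surface, had 54 and 21 UMIs and a log2 ratio of 1.34 (95% interval 0.58 to 2.14). Itgb8, the integrin beta 8 chain that pairs with Itgav, stood at 192 against 80 CPM, a log2 ratio of 1.26 (95% interval 0.98 to 1.54), and at 1.27 (0.91 to 1.64) in the knockout. Tgfb1 itself, a member of the suppressive list, stood at 322 against 188 CPM, a log2 ratio of 0.78 (95% interval 0.59 to 0.97). These TGF-beta genes were brought together after their values were seen. Izumo1r (folate receptor 4) was nearly equal at 1196 against 1139 CPM and 0.07 (95% interval -0.01 to 0.16). Nrp1 (neuropilin-1) was lower, at 104 against 194 CPM and -0.90 (95% interval -1.15 to -0.65).

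Of 15 suppressive and effector genes kept, 8 had a counting interval above 0, against 16.3% of all genes, and 7 did not differ beyond counting error. The list has 17 genes, and 1 was past 2-fold higher, against 1.72% of all genes. Its median was 0.36, with 0.40 in the knockout. The gene past 2-fold was Ccr8, a chemokine receptor of tissue Tregs, with 70 and 15 UMIs and a log2 ratio of 2.19 (95% interval 1.38 to 3.11). Ctla4, the receptor that removes CD80 and CD86 from antigen-presenting cells, was among the most abundant, at 1954 against 1617 CPM, and differed little, with a log2 ratio of 0.27 (95% interval 0.20 to 0.34). The inhibitory receptor Lag3 stood at 938 against 626 CPM and 0.58 (95% interval 0.48 to 0.69), and the costimulatory receptor Icos at 433 against 299.7 CPM and 0.53 (95% interval 0.38 to 0.69). Itgae (CD103), an integrin that retains cells at epithelia, stood at 382 against 207 CPM, a log2 ratio of 0.88 (95% interval 0.71 to 1.06). Il10, a suppressive cytokine, did not differ beyond counting error, at 133 against 126 CPM and 0.08 (95% interval -0.18 to 0.34). In the knockout Lag3 stood at 0.05 (-0.14 to 0.24) and Ctla4 at 0.64 (0.53 to 0.74).

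Genes of naive and recirculating T cells were lower in part. Of 11 listed, 8 were kept, with a median of -0.44. Past 2-fold, 3 were lower and none higher, against 0.994% and 1.72% of all genes. Counting intervals lay below 0 for 5 and above 0 for 1, against 9.62% and 16.3% of all genes. The median was -0.83 without matching and -0.997 with thinned cells. Klf2 and S1pr1 are given with the leading genes. Tcf7, a transcription factor of naive and stem-like T cells, stood at 39.8 against 93.2 CPM and -1.23 (95% interval -1.63 to -0.83). Lef1, its relative, stood at -0.43 (95% interval -0.69 to -0.17), and Bach2, a repressor of effector genes, at -0.44 (95% interval -0.70 to -0.19). Not all members shared this direction: Satb1, a chromatin organizer, was higher at 405 against 224 CPM and 0.85 (95% interval 0.68 to 1.03). Ccr7, the lymph node homing receptor, did not differ beyond counting error, at 0.38 (95% interval -0.02 to 0.78), and its sign depended on the setting. It was at -0.35 with thinned cells, -0.03 at a threshold of 1 Tnfrsf9 UMI and -1.32 with a Foxp3 UMI required. With cells that held any UMI of Ccr7, Lef1 or S1pr1 removed from both groups, 71 genes (1.53%) were higher and 39 (0.841%) lower of 4638. Klf2 stood at -2.97 and Satb1, now past 2-fold, at 1.03.

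**Figure D4:**
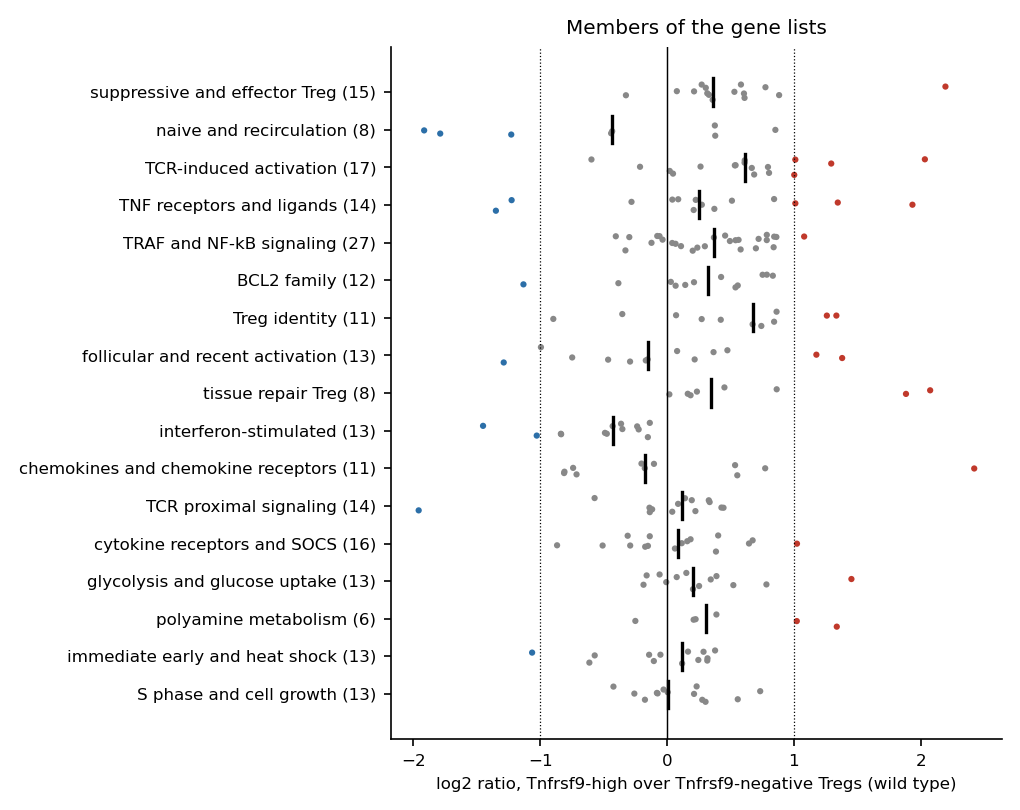
Log2 ratio of Tnfrsf9-high over Tnfrsf9-negative wild-type Tregs (horizontal axis) for the kept members of each gene list, with the number kept in parentheses, the median as a black bar and members past 2-fold in red (higher) or blue (lower); vertical scatter within a line has no meaning. Treg identity and TCR-induced genes have the highest medians (0.67 and 0.61), and naive and interferon-stimulated genes the lowest (-0.44 and -0.43).

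In the follicular and recent activation list 13 of 16 genes were kept, with a median of -0.15. Past 2-fold, 2 were higher and 1 lower, against 1.72% and 0.994% of all genes. Counting intervals lay above 0 for 5 and below 0 for 4, against 16.3% and 9.62% of all genes. The inhibitory receptor gene Havcr2 (TIM-3) and Cd200, the ligand of the CD200 receptor, were higher, at 1.38 (95% interval 0.71 to 2.09) and 1.18 (95% interval 0.94 to 1.42). Tox2 and Cxcr5 of the same list were lower, at -1.29 (95% interval -1.84 to -0.76) and -0.99 (95% interval -1.55 to -0.45). The value of Cxcr5 was -0.31 without matching and 0.015 with thinned cells. Tox, Maf and Rgs10, the members with the most UMIs, stood at 0.22, 0.08 and -0.29. In the tissue repair list 8 of 10 genes were kept and Areg and Penk were past 2-fold higher, against 1.72% of all genes. Il18r1 and Rora stood at 0.19 and 0.45. The list median was 0.34.

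Of 13 interferon-stimulated genes kept, 9 had a counting interval below 0, against 9.62% of all genes. Past 2-fold, 2 were lower, against 0.994% of all genes. All 13 lay below 0, as did 42.4% of all genes, and the median was -0.43. Those past 2-fold were Usp18, an inhibitor of interferon signaling, with 22 and 59 UMIs and -1.45 (95% interval -2.23 to -0.72), and Ifit1, with 41 and 82 UMIs and -1.03 (95% interval -1.61 to -0.47), of which 3 cells gave 56.1% in the Tnfrsf9-high and 36.6% in the Tnfrsf9-negative group. Gbp2, a guanylate-binding protein, stood at 89.9 against 161 CPM and -0.84 (95% interval -1.11 to -0.56). The members with the most UMIs were nearer to 0: Ifi27l2a stood at 3329 against 3657 CPM and -0.14 (95% interval -0.19 to -0.09) and Zbp1 at -0.36 (95% interval -0.59 to -0.13). Ifi27l2a was at 0.0012 without matching and 0.16 with thinned cells. In the knockout 9 members were kept, the median was -0.17 and none was past 2-fold.

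Of 11 chemokine and chemokine receptor genes kept, 1 was past 2-fold higher, against 1.72% of all genes, with a list median of -0.18. It was Xcl1 (lymphotactin), with 71 and 13 UMIs and a log2 ratio of 2.42 (95% interval 1.56 to 3.40), of which 3 cells gave 66.2% in the Tnfrsf9-high group. The inflammatory chemokines Ccl4 and Ccl5 stood at 455 against 266 CPM (0.77 (95% interval 0.61 to 0.93)) and 812 against 553 CPM (0.55 (95% interval 0.44 to 0.67)), but Ccl5 stood at -0.0085 without cells that held naive gene UMIs. Cxcr3, the receptor of type 1 effector cells, was lower at 140.0 against 229.6 CPM and -0.71 (95% interval -0.94 to -0.49), and at -0.63 (-1.01 to -0.26) in the knockout, but at -0.28 with thinned wild-type cells and -0.24 with a Foxp3 UMI required. Ccr2 stood at -0.20 (95% interval -0.42 to 0.01).

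Among cytokine receptors and their signaling genes, all 16 were kept and Stat5a was past 2-fold higher, against 1.72% of all genes. The list median was 0.09. Stat5a, which carries the interleukin-2 signal, stood at 87.8 against 43.2 CPM and 1.02 (95% interval 0.64 to 1.42), whereas its paralog Stat5b stood at 198 against 245 CPM and -0.31 (95% interval -0.51 to -0.11). Il2rg, Stat3 and Ifngr1 stood at 0.12, 0.39 and -0.15. Among 13 glycolysis and glucose uptake genes kept, 1 was past 2-fold higher, against 1.72% of all genes. It was Slc16a3 (the lactate exporter MCT4), with 67 and 24 UMIs and 1.45 (95% interval 0.76 to 2.19). The abundant enzymes Gapdh, Pkm and Ldha stood at 0.15, 0.34 and 0.39. In polyamine synthesis Odc1, its rate-limiting enzyme, stood at 226 against 111 CPM and 1.02 (95% interval 0.78 to 1.27), and Srm, spermidine synthase, had 67 and 26 UMIs and 1.34 (95% interval 0.67 to 2.05), while Oaz1 and Sat1 stood at 0.23 and 0.39. Odc1 and Srm were the 2 of 6 members past 2-fold higher, against 1.72% of all genes, and the list median was 0.31. In the knockout Odc1 stood at 0.59 (0.23 to 0.95) and Srm at -0.27 (-0.97 to 0.42). No S phase gene of 13 kept was past 2-fold, and the median was 0.0050, in cells from which the rule had removed those with 3 or more cycle UMIs. Its members with the most UMIs, the histone gene H2afz, the chromatin protein gene Hmgb2 and the tubulin gene Tubb5, stood at 0.21, -0.42 and 0.28.

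Levels were next followed over 4 steps of Tnfrsf9, in cells thinned to 2000 UMIs: 656 cells with 0 UMIs, 224 with 1, 236 with 2 to 4 and 192 with 5 or more. Tnfrsf4 stood at 759.9, 1297, 2111 and 2668 CPM, Nr4a1 at 41.2, 91.5, 139.9 and 175 CPM, and Itgav at 247, 330.4, 541 and 874 CPM. Il1r2 stood at 43.4, 67, 125 and 308 CPM over the same steps. Among lower genes Evl stood at 269, 188, 48.8 and 26.1 CPM, Klf2 at 97.6, 58, 17 and 10.4 CPM and Bcl2 at 162, 80.4, 70 and 54.8 CPM. These genes were chosen for their ratio in largely the same cells, so the steps are a description. Neighboring steps often overlapped in their intervals, as for Nr4a1 between 2 to 4 (108 to 178 CPM) and 5 or more UMIs (135 to 222 CPM). Over the steps 9 of the 12 leading higher genes were ordered upward and 7 of the 12 leading lower genes downward. Tnfrsf8 was not ordered, at 13, 13.4, 55.1 and 33.9 CPM, nor were Penk and Irf8, and among the lower genes neither S1pr1, at 106, 62.5, 14.8 and 18.3 CPM, nor Themis, Tnfsf8, Gm12840 and Cd226 fell at every step. The identity genes of the rule did not follow a common course: Ikzf2 stood at 1884, 2230.4, 2374 and 2509 CPM and Foxp3 at 34.3, 31.3, 40.3 and 23.5 CPM.

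**Figure D5:**
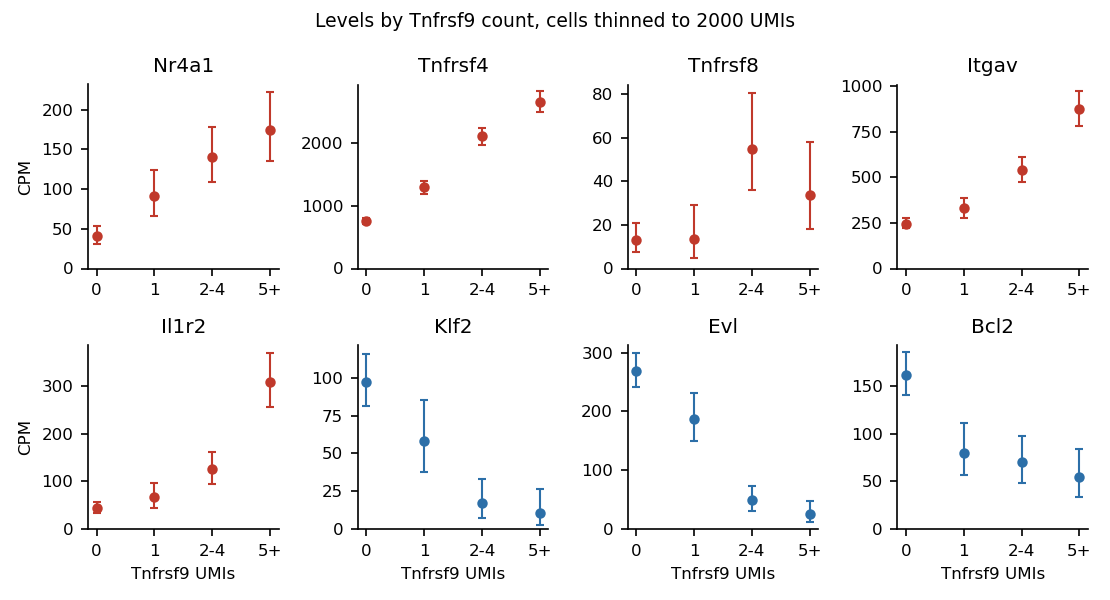
Level in CPM (vertical axis, from 0) of 8 genes in wild-type Tregs with 0, 1, 2 to 4 and 5 or more Tnfrsf9 UMIs (horizontal axis), each cell thinned to 2000 UMIs, with exact 95% Poisson intervals. Tnfrsf4 goes from 760 to 2668 CPM and Evl from 269 to 26.1 CPM across the steps, and Tnfrsf8 is not ordered.

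Shares of cells with a UMI at this fixed depth (428 Tnfrsf9-high and 656 Tnfrsf9-negative cells, 3 and 45 shallower cells left out) were compared next. Tnfrsf4 was counted in 91.8% (88.8 to 94.2%) against 61.3% (57.4 to 65.0%), without thinning 99.1% and 71.8%, and in 6.28% of thinned wild-type CD8 T cells. Nr4a1 was counted in 18.9% (15.3 to 23.0%) against 5.95% (4.26 to 8.04%), without thinning 35.7% and 11.4%, and in 5.12% of CD8 T cells, so its share in Tnfrsf9-negative Tregs was close to that in CD8 T cells. Il1r2 was counted in 21.5% (17.7 to 25.7%) against 5.49% (3.87 to 7.52%), without thinning 36.9% and 9.13%, and in 0.698% of CD8 T cells. Klf2 was counted in 2.80% (1.46 to 4.85%) against 14.8% (12.2 to 17.7%), without thinning 6.26% and 21.8%, and in 17.7% of CD8 T cells. Evl was counted in 6.31% (4.20 to 9.05%) against 35.8% (32.1 to 39.6%), without thinning 16.7% and 48.5%, and in 46.7% of CD8 T cells.

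Markers of most other cell types were low in both groups. The exceptions were the CD8 T cell and myeloid lists and single genes, whose source was not tested. The B cell list summed to 11 and 4 UMIs in matched Tnfrsf9-high and Tnfrsf9-negative cells with Pax5 at 0, the erythroid list to 0 and 0, the acinar list to 46 and 35 over 7 genes and the endocrine list to 24 and 47. The NK cell list summed to 9 and 36 UMIs, with Ncr1 and Klrb1c at 0. The conventional helper T cell list had 52 and 79 UMIs, with Il17a at 0. The 1 gene of the gamma delta T cell list found in the matrix, Sox13, had 1 and 0 UMIs. The myeloid list summed to 603 and 434 CPM, and 135 Tnfrsf9-high against 74 Tnfrsf9-negative cells held 2 or more of its 10 genes, almost all of it from Cst3 (0.31 (95% interval 0.15 to 0.47)) and Cd74 (0.86 (95% interval 0.63 to 1.10)), while Csf1r, Itgam and C1qb were at 0 and Lyz2 at 0 and 2 UMIs. The CD8 T cell list summed to 1628 and 999 CPM, and 150 Tnfrsf9-high against 102 Tnfrsf9-negative cells held 2 or more of its 7 genes. This list had Cd8a and Cd8b1 at 0 by the rule, and its effector genes Nkg7 and Ccl5 stood at 0.95 (95% interval 0.83 to 1.08) and 0.55, while Gzmk, the other gene kept, had 44 and 69 UMIs and -0.68 (95% interval -1.26 to -0.11). In the endothelial or stromal list Pecam1, which T cells also carry, was lower, with 78 and 179 UMIs, and Cdh5, Col1a2 and Col3a1 were at 0. Cells were then left out by these lists, but not by the NK cell and T cell lists. Without the 287 cells of the unmatched groups that held 2 or more genes of a list so used, 228 pairs remained, with 111 genes (1.90%) higher and 53 (0.906%) lower of 5852. Cd74 stood at -0.077 in these pairs and Cst3 at 0.32. Cells that held both genes were among those removed, so these values are not independent of the filter.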

How the data were processed

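The members and gene lists were chosen with earlier results of these data known, and some list members are not reported here. The authors deposited a filtered matrix of UMI counts per gene and cell for each library (10x Chromium Single Cell 3′ v2 chemistry). Per the submitters' processing notes, Cell Ranger 7.0.0 and mm10 were used; whether intronic reads were counted is not given in the sources used here. Both libraries were used whole, 27998 genes each, with no batch correction, doublet caller or cell annotation.

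From these counts, Tnfrsf9-high and Tnfrsf9-negative Tregs were paired 1 to 1 on total UMIs without Tnfrsf9, by the assignment with the smallest sum of log2 gaps (scipy 1.17.1). The 358 cells of each group summed to 1935281 and 1898842 UMIs. UMIs per gene were summed over the paired cells and divided by the group's total without Tnfrsf9 (CPM, per 1000000). Intervals at 95% are exact (Poisson for a level, conditional binomial for a ratio, Clopper-Pearson for a share) and cover counting error only. A gene was kept with at least 50 UMIs over both groups. Past 2-fold refers to a log2 ratio of 1.0 or more in size. A missing side was counted as 0.5 UMI. Thinning to 2000 UMIs drew without replacement with a fixed seed.

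The genes named are, by rule, the 12 with the largest and the 12 with the smallest ratio after 20 CPM was added to both sides, every list member past 2-fold, and the 2 or 3 members with the most UMIs of each list. Others (such as Rel, Cd69, Fos, Nrp1, Cxcr3, Bcl2l1, Tgfb1, Itgae, Stat5b and Sdf4) were named after their values were seen. With 1 library per genotype no test between samples was possible. The ratio and its interval were tested on simulated counts. Alternatives covered the depth handling, the Tnfrsf9 threshold, the cell and Treg rules, cells with other markers, the weight of cells, the minimum count and trimmed mean scaling (edgeR 4.0.16, R 4.3.3). Positions are from GENCODE vM21 on GRCm38.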

Additional observations from a re-analysis of the deposited data

Results flagged for a closer look

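Of 211 leading genes and list members with enough UMIs in both libraries, 155 had a log2 ratio of the same sign in wild-type and knockout Tregs. In 5 genes the ratio lay on opposite sides of 0 in the 2 libraries with both counting intervals clear of 0. There is 1 library per genotype, so these differences were not tested. The chemokine gene Ccl4 was higher in wild-type Tnfrsf9-high Tregs, at 455 against 266 CPM (log2 ratio 0.77, 0.61 to 0.93), and lower in those of the knockout, at 211 against 329 CPM (-0.64, -0.90 to -0.38). The interferon-stimulated gene Ifi27l2a stood at -0.14 (-0.19 to -0.09) in the wild type and at 0.39 (0.30 to 0.47) in the knockout, but its wild-type value was 0.0012 without matching and 0.16 with thinned cells, on the same side as the knockout. The tubulin gene Tubb5 stood at 0.28 (0.10 to 0.45) and -0.60 (-0.88 to -0.33). The chaperone genes Hsp90aa1 and Hspa8 stood at 0.29 (0.14 to 0.44) and 0.12 (0.03 to 0.20) in the wild type, and at -0.29 (-0.49 to -0.09) and -0.25 (-0.37 to -0.13) in the knockout.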

How the results depend on the processing

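No paired analysis was possible because each genotype has 1 library, and for the same reason no replicate could be left out. The counts of genes past 2-fold were 123 higher and 71 lower. Without matching, 172 genes were lower, and with all cells thinned to 2000 UMIs 147 were lower against 101 higher, so the excess of higher genes depended on the depth handling. At a threshold of 1 Tnfrsf9 UMI the counts were 76 and 39, with a Foxp3 UMI required (45 pairs, fewer genes kept) 41 and 21, without cells that held UMIs of the naive genes Ccr7, Lef1 and S1pr1 (169 pairs) 71 and 39, with a minimum of 20 UMIs 288 and 199, and with a minimum of 100 UMIs 55 and 35.

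Suppressive members past 2-fold (1) became 2 without naive gene UMIs, and 0 with a Foxp3 UMI required (7 kept) or a minimum of 100 UMIs (14 kept). Ccr8 had too few UMIs to be kept in either of these settings, where it stood at 4.56 and 2.19. The first of these values, from 45 pairs, rests on few UMIs. Naive members (3, all lower) became 4 when thinned, 2 at 1 Tnfrsf9 UMI, 0 with a Foxp3 UMI, and 1 lower and 1 higher without naive gene UMIs. With a Foxp3 UMI only 3 members were kept. Klf2 and S1pr1, not kept there, stood at -3.20 and -2.76, and Tcf7 stood at -0.76. TCR-induced members (4) became 2 when matched on genes detected, at 1 Tnfrsf9 UMI, with trimmed mean scaling or without naive gene UMIs. They became 0 with a Foxp3 UMI, where 5 members were kept and Nr4a1, not kept, stood at 2.88. TNF family members (5) became 3 when thinned or matched on genes detected, 1 with a Foxp3 UMI and 2 without naive gene UMIs. With a Foxp3 UMI only 5 members were kept. Tnfrsf4 stood at 1.22 there and Tnfrsf1b at 0.78. Tnfrsf8 and Tnfsf8 had too few UMIs to be kept, at 3.30 and -5.98. Tnfsf8 had no UMI in the Tnfrsf9-high cells of that setting, which was counted as 0.5 UMI. TRAF and NF-kB members (1) became 2 when thinned or at 5 Tnfrsf9 UMIs, 3 without cells with other markers, and 0 when matched on genes detected or without naive gene UMIs. The share of all genes kept that was past 2-fold moved as well. The higher share ran from 0.986% at 1 Tnfrsf9 UMI to 3.17% with a minimum of 20 UMIs. The lower share ran from 0.506% at 1 Tnfrsf9 UMI to 2.61% when thinned. The causes were not tested.

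Over all alternatives 1726 log2 ratios of single genes were compared, of which 1418 stayed within the counting interval. The settings with a minimum of 20 or 100 UMIs do not alter a ratio, so their 124 values each stayed by design. Another 287 left the counting interval on the same side of 0 or were not beyond counting error at first. The other 21 were beyond counting error at first and changed sign. Genes not beyond counting error at first, such as Ccr7, Bax, Il10 and Egr1, also crossed 0 in some settings and are not among the 21. Of the 21, those with a Foxp3 UMI required came from 45 pairs, and intervals are not given there. Nr4a2, Traf4 and Hspa1a had few UMIs in these pairs. The sign changes were Penk (-0.10), Nr4a2 (-0.18), Traf4 (-0.29), Hspa1a (1.03), Ltb (-0.0034), Traf1 (-0.10), Rora (-0.080), Ifngr1 (0.27), Junb (-0.096) and Cd69 (0.16). Without naive gene UMIs they were Rgs1 (0.036), Ccl5 (-0.0085), Lck (-0.011) and Ifngr1 (0.017). Ifngr1 stood at 0.20 at 5 Tnfrsf9 UMIs, Cd74 at -0.077 without cells with other markers (a filter that uses Cd74 itself), and Junb at -0.16 and Ifi27l2a at 0.0012 without matching. With thinning Junb stood at -0.17, Ifi27l2a at 0.16 and Cxcr5 at 0.015. Leaving out the 7 cells whose barcodes occur in both libraries, an alternative chosen after seeing the data, gave 130 and 65 genes and changed no sign. The set of 3 naive genes was likewise chosen after seeing the data, in place of a planned set.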

Other observations

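Whole families of abundant genes differed by little between the matched groups. Of 81 ribosomal protein genes kept, 77 lay below 0, against 42.4% of all genes. Their median log2 ratio was -0.15, and in the knockout the median was -0.16. Before matching, these genes took 23.9% of UMIs in both wild-type groups. Of 75 nuclear genes of oxidative phosphorylation, 55 lay above 0 and 20 below, where 42.4% of all genes lay below. Counting intervals lay above 0 for 20 and below 0 for 3, against 16.3% and 9.62% of all genes. The other 52 did not differ beyond counting error, and the median was 0.14, against -0.00067 in the knockout. Of 12 mitochondrially encoded genes 10 lay below 0, against 42.4% of all genes, with a median of -0.16. The 11 genes of MHC class I and its antigen processing had a median of 0.072. None of these genes was past 2-fold in the wild type.

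Sdf4, which encodes a calcium-binding protein of the Golgi, ends 232 bases before the start of Tnfrsf4 on the same strand, and was looked at after its values were seen. It had 2330 UMIs in Tnfrsf9-high and 1182 in Tnfrsf9-negative cells, a log2 ratio of 0.95 (0.85 to 1.05), and 0.67 (0.51 to 0.83) in the knockout. In Tregs thinned to 2000 UMIs, the 975 cells with a Tnfrsf4 UMI held a mean of 1.77 Sdf4 UMIs and the 333 cells without one a mean of 0.682. The Pearson correlation of Sdf4 with Tnfrsf4 across these cells, which share 1 library and depth, was 0.28 (0.10 within Tnfrsf9-high and 0.34 within Tnfrsf9-negative cells), and that of Tnfrsf18 with Tnfrsf4 over all cells was 0.40. Whether tags of one gene were counted for the other was not tested.

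Wild-type CD8 T cells chosen by the mirrored rule held 24 cells with 2 or more Tnfrsf9 UMIs, of which 23 were paired. Nr4a1 had 25 and 6 UMIs there and Irf8 had 22 and 3, whereas Tnfrsf4 had 17 and 25 and Id2 had 105 and 100.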
